A study of Mus musculus with 24 samples.

Results

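Chromosomes 1, 4 and 7 of female mouse hybrid cells carried unequal shares of reads from their parental genomes, and in SIRT7-KO cells the imbalance favoured the other parent. The data are read counts per 1 Mb bin (mouse genome, build mm10). The chromosomes were selected on measured values, namely the genome1 and genome2 read shares of these same libraries. Those shares are therefore given as a description, with no test. All bins of the 3 chromosomes with a mean total count of at least 100 in both deposited tables were taken. This gave 490 of the 2582 bins of chromosomes 1 to 19 and X that met the same minimum: 193 on chromosome 1, 154 on chromosome 4 and 143 on chromosome 7. The minimum was far from any member, since the lowest member bin held a mean of 15345 reads and the 9 bins left out of these chromosomes held 0. All 490 bins had at least 100 genome-assigned reads in each of the 16 libraries with genome counts.

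The study profiled the histone variant H2AX and its phosphorylated form γH2AX by chromatin immunoprecipitation with sequencing (ChIP-seq), next to input DNA without antibody. Its title places it in work on SIRT7, dosage compensation and the X chromosome of females. There were 24 labelled samples in 12 groups of 2. The groups were SIRT7-KO cells (γH2AX, H2AX and input), SIRT7-HY clones c5 and c7 (γH2AX and H2AX), SIRT7-KO clones c22 and c9 carrying SIRT7-WT (γH2AX and H2AX), the same KO clones without it (γH2AX and H2AX) and WT cells (γH2AX, H2AX and input). All were female C57BL6/CAST hybrid cells labelled TTF, an abbreviation that is not explained, nor is HY. All, WT included, were labelled as irradiated with X-rays (5 Gy, 30 minutes of recovery). In the first count table the KO and WT columns end in NT or Xray, although every label states irradiation. Those libraries are called here NT-named and Xray-named, and what NT stands for is not stated, so whether the NT-named libraries were irradiated is not known. The Xray-named γH2AX and input libraries of WT come on top of WT replicates 1 and 2, which already account for the 2 labelled samples of each of those groups. They are therefore shown as values and left out of every mean and test. H2AX of WT also has an Xray-named library apart from replicate 1 (identical counts in 0 of 2582 bins), so its libraries exceed its labelled samples. Unlike the γH2AX and input ones, that library was kept. It is 1 of the 2 WT libraries in the test of total H2AX in KO against WT. Each clone library stems from a single clone, and which of the named clones is replicate 1 or 2 is not stated.

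A hybrid cell holds a chromosome set from each parent strain, so reads that cover a strain difference can be assigned to one of them. A cell with 1 copy of a chromosome from each parent holds equal DNA of both, and an added or lost copy moves the share over the whole chromosome. The share of assigned reads also varies from bin to bin, so 50% is a line for orientation and not a measured baseline. H2AX is part of nucleosomes throughout the genome. Kinases of the ATM family phosphorylate it around double-strand breaks, and the mark spreads over large domains. SIRT7 is an NAD+-dependent deacylase of chromatin. In bulk DNA, a change of copies in all cells and one in a fraction of the cells cannot be told apart, and which strain is genome1 is not given in the sources used here.

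Depth was high for bins of this size. The 10 libraries with total counts held 88317834 to 248337642 reads, and the 16 libraries with genome counts held 48257837 to 142347572 assigned reads. In the 6 WT libraries with both, 50.5 to 57.3% of autosomal reads were assigned to a genome. H2AX of WT replicate 2 was identical to the NT-named H2AX library of WT in 2582 of 2582 bins, so these are 1 library, and the results on them are not independent of each other. WT replicates 1 and 2, used here as replicates after their labels, may thus differ in irradiation, and so may the NT-named and Xray-named libraries set together in H2AX of KO and WT. The targeted gene, Sirt7, lies on chromosome 11 (120618371 to 120625014). Its bin held 281 and 279 CPM (read counts scaled to library size) of H2AX in KO cells, against 528 and 553 in WT cells. The gene covers only a small part of that bin, so these counts are no check of the knockout. The cause of the difference was not tested.

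In KO cells genome1 was the larger share of chromosome 1 and the smaller share of chromosomes 4 and 7, and in WT cells each was the reverse. In input, genome1 made up 60.7% of the assigned reads of chromosome 1 in KO cells (95% Wilson interval 60.7 to 60.8) and 31.6% in WT cells, in the Xray-named library of each. On chromosome 4 it made up 31.1% in KO and 61.4% in WT cells. On chromosome 7 it made up 30.8% in KO and 61.1% in WT cells. The differences in input were thus +29.1, -30.3 and -30.3 percentage points. They were the 3 largest of the 20 chromosomes, which is what the chromosomes were chosen for. Over all other autosomes together, genome1 stood at 53.1% in KO and 55.0% in WT input. Taken singly, those autosomes ranged from 41.0 to 65.7% in KO and from 29.3 to 68.0% in WT input. Unequal shares were therefore not particular to these 3 chromosomes. Intervals cover counting error only.

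γH2AX carried the same imbalance as input. On chromosome 1 the genome1 share of γH2AX was 60.7% in KO and 31.7% in WT cells. On chromosome 4 it was 31.2% in KO and 61.8% in WT, and on chromosome 7 it was 31.0% in KO and 61.4% in WT. The KO shares come from 1 library per assay and have no replicate check. For WT cells the replicates were close. Genome1 in γH2AX averaged 31.7% ± 0.177 on chromosome 1, 61.5% ± 0.153 on chromosome 4 and 61.3% ± 0.104 on chromosome 7 (SD, n = 2). In H2AX it averaged 31.8% ± 0.219, 61.8% ± 0.360 and 61.6% ± 0.265, and in input 31.6% ± 0.120, 61.4% ± 0.0242 and 61.2% ± 0.0293 (SD, n = 2 each). Over 8 WT libraries, namely replicates 1 and 2 of each assay and the Xray-named γH2AX and input, the range was 31.5 to 32.0% on chromosome 1, 61.4 to 62.0% on chromosome 4 and 61.1 to 61.7% on chromosome 7. No WT library came near a KO library on any of the 3 chromosomes.

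**Figure D1:**
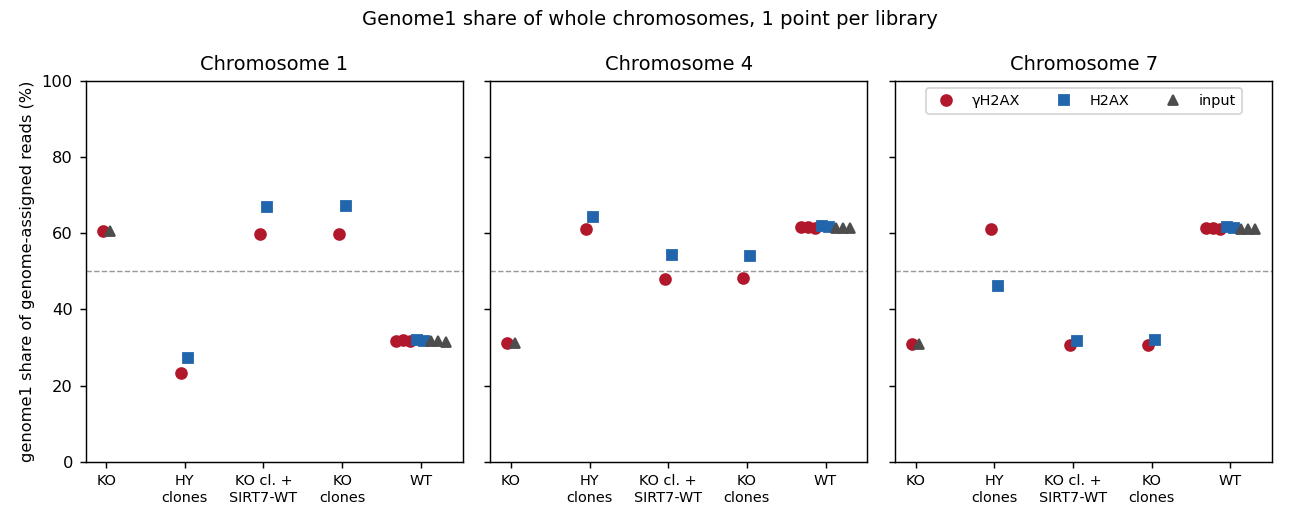
Genome1 share of the genome-assigned reads (%) of chromosomes 1, 4 and 7, with 1 point per library, by genotype, and the assay by marker and colour. The dashed line is 50%. KO cells lie at 60.7% on chromosome 1 and at 30.8 to 31.2% on chromosomes 4 and 7, and the 8 WT libraries lie at 31.5 to 32.0% and at 61.1 to 62.0%.

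In the typical bin the ratio between the parents lay near 2 to 1 in both genotypes, with the parents exchanged. The median bin of chromosome 1 had a genome1-to-genome2 ratio of 1.86 in KO input, and a genome2-to-genome1 ratio of 1.92 in WT input. On chromosome 4 genome2 exceeded genome1 by a ratio of 2.00 in KO, and genome1 exceeded genome2 by 1.90 in WT. On chromosome 7 these ratios were 2.07 in KO and 1.81 in WT.

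Both genomes differed, in opposite directions, so that the sums differed little. Levels here are assigned reads as a share of all assigned autosomal reads of the library, given as log2 differences of KO from WT in input. On chromosome 1 genome1 was 0.81 higher in KO and genome2 0.93 lower, and both together differed by -0.13. On chromosome 4 genome1 differed by -1.02 and genome2 by +0.79, and both together by -0.04. On chromosome 7 genome1 differed by -1.02 and genome2 by +0.80, and both together by -0.03. A log2 difference of 1 is a doubling, so the lower genome and the higher genome nearly offset each other. In γH2AX genome1 differed by +0.82 on chromosome 1, -1.03 on chromosome 4 and -1.02 on chromosome 7, and genome2 by -0.92, +0.80 and +0.80 on the same chromosomes.

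**Figure D2:**
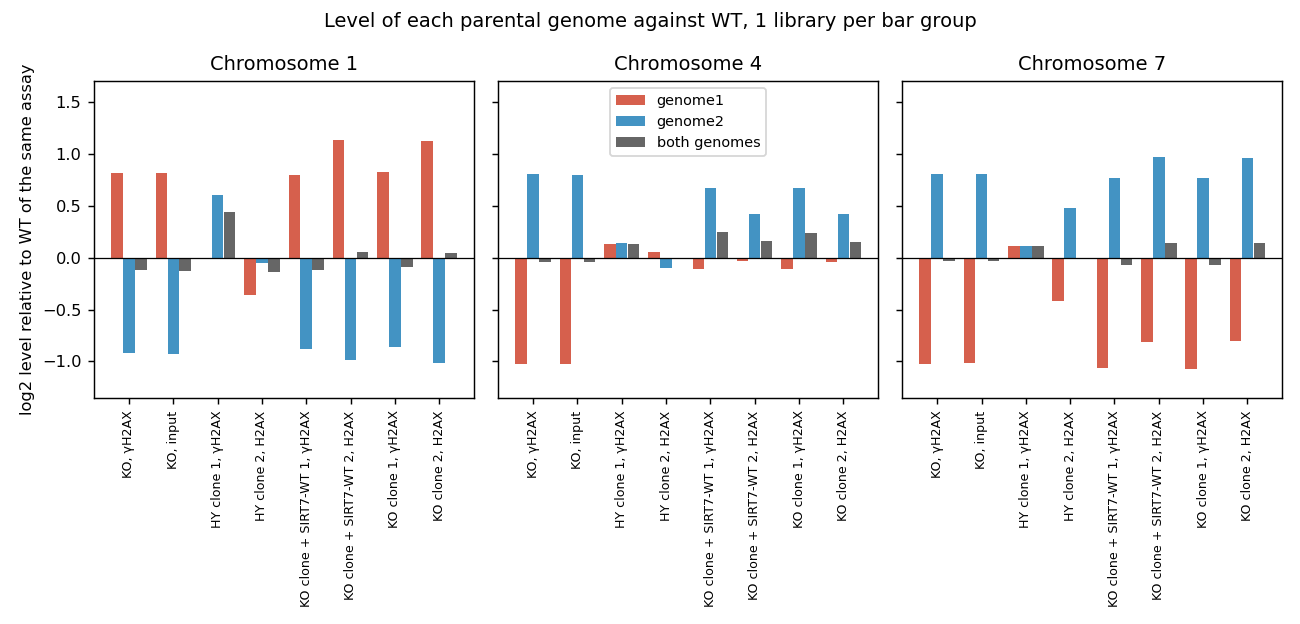
Log2 level of genome1, genome2 and both together on chromosomes 1, 4 and 7, each library against WT of the same assay in the same table. KO levels are set against the Xray-named WT library and clone levels against the mean of 2 WT libraries, so bars carry no error. In KO cells 1 genome is higher and the other lower, with the sum near 0, whereas HY clone 1 has a higher genome2 and a genome1 near 0 on chromosome 1.

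The exchange ran along the whole of each chromosome. Summed in blocks of 10 Mb, KO input differed from WT on chromosome 1 by +0.79 to +0.84 in genome1 and by -1.08 to -0.72 in genome2 over 20 blocks. On chromosome 4 the 16 blocks ranged over -1.05 to -0.95 in genome1 and +0.59 to +0.91 in genome2. On chromosome 7 the 15 blocks ranged over -1.07 to -0.92 and +0.64 to +0.92. No block of any of these chromosomes went against its chromosome. By bin, genome1 was higher in KO input in 193 of 193 bins of chromosome 1 and lower in 153 of 154 bins of chromosome 4 and 143 of 143 of chromosome 7. Genome2 went the other way in 193, 154 and 143 bins. The 1 bin with the other sign, chr4:113000001-114000000, holds Skint genes and is described with the low-share stretches.

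In most bins the 2 genotypes stood on opposite sides of an equal share of 50%. In input this held in 172 of 193 bins of chromosome 1 (89.1%), 136 of 154 of chromosome 4 (88.3%) and 132 of 143 of chromosome 7 (92.3%), 440 of 490 in all. On the other autosomes it held in 377 of 1920 bins (19.6%). In γH2AX the counts were 170, 136 and 132 bins, and 388 on the other autosomes (20.2%). The median bin differed in input by +30.2 points on chromosome 1, -31.4 on chromosome 4 and -31.2 on chromosome 7, KO minus WT.

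**Figure D3:**
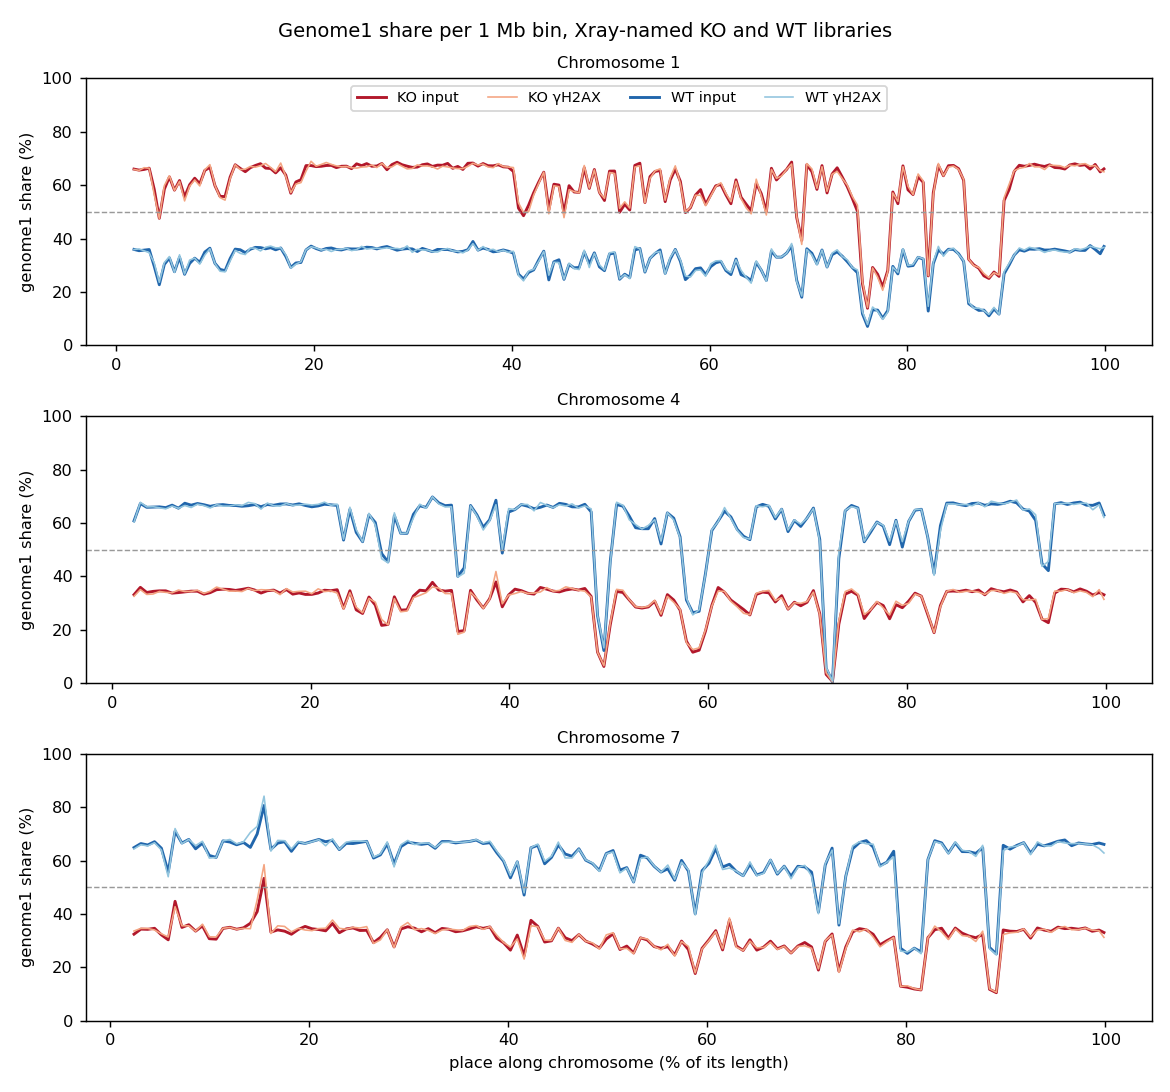
Genome1 share (%) of each 1 Mb bin along chromosomes 1, 4 and 7, as percent of chromosome length, for input (thick) and γH2AX (thin) of the Xray-named KO and WT libraries. The dashed line is 50%. KO runs above WT along chromosome 1 and below it along chromosomes 4 and 7, input and γH2AX overlie, and the same stretches dip in both genotypes.

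Each genotype repeated the same fine profile at another height. Across the bins of a chromosome, KO and WT input shares correlated at r = 0.991 on chromosome 1, 0.983 on chromosome 4 and 0.957 on chromosome 7. The 2 WT input replicates correlated at 0.996, 0.998 and 0.995. These are descriptions over neighbouring bins of the same libraries, which are not independent points. The highest KO shares of chromosome 1 were in chr1:55000001-56000000, with the splicing factor gene Sf3b1 and the chaperonin genes Hspd1 and Hspe1 (68.6% in KO, 35.6% in WT), and in chr1:133000001-134000000, with the p53 inhibitor gene Mdm4 (68.6% in KO, 37.2% in WT). The largest negative difference of any member was in chr4:143000001-144000000, with the methyltransferase gene Prdm2 and the podoplanin gene Pdpn, at 30.4% in KO and 65.2% in WT (-34.8 points). A large difference was also found in chr7:30000001-31000000 (34.2% in KO, 68.0% in WT).

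In some stretches genome1 was scarce in every library, whatever the genotype. Bins with a share at least 25% below the median bin of their chromosome in all 16 libraries numbered 15 on chromosome 1, 14 on chromosome 4 and 9 on chromosome 7, in 4, 7 and 5 runs. This limit was chosen after the profiles were seen. The run chr1:147000001-153000000, which holds the prostaglandin synthase gene Ptgs2 and the Polycomb ubiquitin ligase gene Rnf2, had a genome1 share of 23.7% in KO and 11.4% in WT input. Its lowest bin, chr1:148000001-149000000, holds no protein-coding gene and had 13.9% in KO and 7.06% in WT. The run chr1:168000001-175000000 had 27.9% in KO and 13.2% in WT. Within them KO still exceeded WT, as on the rest of the chromosome.

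On chromosomes 4 and 7 the order was the reverse. The run chr4:76000001-79000000 with Ptprd, a receptor phosphatase gene, had 13.2% in KO and 27.7% in WT, and chr4:90000001-94000000 with Elavl2, an RNA-binding protein gene, had 14.8% in KO and 31.4% in WT. The runs chr7:115000001-119000000 with the transcription factor gene Sox6 (12.3% in KO, 26.4% in WT) and chr7:128000001-130000000 with the integrin genes Itgam and Itgax (11.2% in KO, 26.3% in WT) were alike. Genome1 was scarcest at the Skint genes, a family named for the selection of epidermal T cells, in chr4:112000001-114000000, with 1.93% in KO and 3.02% in WT. That run includes chr4:113000001-114000000 with Skint5 and Skint6, at 0.614% in KO and 0.497% in WT (+0.116 points), the only member bin in which the input difference went against its chromosome. In γH2AX that bin was lower in KO, like the 153 others of chromosome 4. Both input shares of the bin are very low, and their difference was not tested against counting error. In input of WT replicate 1 no bin of chromosome 4 held less than 0.662%, so there the bin was not below KO.

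The highest genome1 shares of chromosome 7 in KO input lay in bins filled with gene families, in which few reads could be assigned. In chr7:22000001-23000000, full of Vmn1r vomeronasal receptor genes, genome1 held 53.4% in KO and 80.7% in WT, but only 1.90% of reads were assigned. In chr7:9000001-10000000, with Vmn2r genes, it held 44.8% in KO and 71.1% in WT, at 1.64% assigned. The bin chr4:60000001-61000000, with the major urinary protein genes (Mup), held 37.9% in KO and 68.5% in WT, at 6.71% assigned. Next to it in rank on that chromosome stood chr4:50000001-51000000, which holds no protein-coding gene, with 37.7% in KO and 69.7% in WT at 62.9% assigned. Such families consist of near-identical copies, among which reads may be exchanged, and their values are uncertain. The share of reads assigned was 64.2% in the median member bin (input, WT replicate 2). Across bins of that library, the share assigned and the genome1 share correlated at r = 0.21 on chromosome 1 (193 bins), 0.28 on chromosome 4 (154 bins) and 0.04 on chromosome 7 (143 bins), a description over bins that share a library.

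The clones did not all share 1 pattern, and each chromosome behaved separately in them. On chromosome 1 genome1 held 23.3% in HY replicate 1 (γH2AX) and 27.3% in HY replicate 2 (H2AX). It held 59.9% and 67.0% in KO clones with SIRT7-WT, and 59.8% and 67.3% in KO clones without it. WT stood at 31.7% in γH2AX and 31.8% in H2AX. The KO clones thus lay on the side of KO cells, and the HY clones on the side of WT and further from an equal share.

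On chromosome 4 the KO clones departed from KO cells. Genome1 held 61.3% and 64.3% in HY replicates 1 and 2. It held 48.1% and 54.3% in KO clones with SIRT7-WT, and 48.2% and 54.0% in KO clones, nearer to an equal share than in KO or WT cells. KO cells stood at 31.2% and WT cells at 61.5% in γH2AX. In KO clone replicate 1 (γH2AX) the median bin had a genome1-to-genome2 ratio of 1.05, and 88 of 154 bins lay above 50%. In KO clone replicate 2 (H2AX) that ratio was 1.30, and 116 of 154 bins lay above 50%. The difference from WT in H2AX was -7.53 points in the KO clone with SIRT7-WT and -7.82 in the KO clone, but +0.236 and -0.117 points once the share of all other autosomes was subtracted. In γH2AX it was -13.4 and -13.3 points, and -10.9 and -10.8 after that subtraction. On chromosome 7 the KO clones were like KO cells, with 30.7% and 31.8% in KO clones with SIRT7-WT and 30.7% and 32.1% in KO clones without it. HY replicate 1 held 61.2%, within the WT range, and HY replicate 2 held 46.3%, with a genome2-to-genome1 ratio of 1.08 in the median bin. Clone and assay change together here (replicate 1 is γH2AX, replicate 2 is H2AX), so the 2 cannot be told apart from these columns.

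KO clones with SIRT7-WT and KO clones without it had nearly equal shares on all 3 chromosomes. In γH2AX of replicate 1 the share with SIRT7-WT minus that without was +0.0337 points on chromosome 1, -0.0989 on chromosome 4 and +0.0607 on chromosome 7. In H2AX of replicate 2 it was -0.253, +0.287 and -0.260 points. By bin, clones with and without SIRT7-WT lay within 2 points of each other in 185 of 193, 150 of 154 and 134 of 143 bins in γH2AX. In H2AX they did so in 191, 149 and 136 bins. With 1 library on each side, a difference of this size has no replicate check, and WT replicates had SDs of 0.104 to 0.360 points in the same assays.

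Levels of each genome in the clones are read from γH2AX, where the clone and WT profiles were smooth. They are parts of all assigned autosomal reads of 1 γH2AX library, with no clone input beside them. Differences on other chromosomes also move such levels, and single other autosomes of HY replicate 1 ranged from 24.2 to 93.5% in genome1 share. Which genome changed in DNA was not tested. In HY replicate 1, genome2 of chromosome 1 was 0.60 higher than in WT on the log2 scale and genome1 differed by -0.01, so both together were 0.44 higher. The median bin had a genome2-to-genome1 ratio of 3.00. On chromosome 4, KO clone replicate 1 had +0.67 in genome2 and -0.11 in genome1, with +0.24 in both, and the clone with SIRT7-WT had the same 3 values. On chromosomes 1 and 7 that KO clone had the exchange seen in KO cells, +0.82 in genome1 and -0.86 in genome2 on chromosome 1, and -1.07 in genome1 and +0.77 in genome2 on chromosome 7, with sums of -0.09 and -0.07. Clone levels in H2AX varied by region. In KO clone replicate 2, blocks of chromosome 4 ranged over -0.87 to +0.43 in genome1, so levels of H2AX in the clones are not read further.

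Imprinted genes, which are expressed from 1 parental copy, lay in the unbalanced stretches with their chromosomes. All 19 listed genes fell in 7 member bins, and in 6 of these KO and WT stood on opposite sides of 50%, beside 440 of 490 members. In the bin of the growth factor gene Igf2 and the noncoding RNA H19 (chr7:142000001-143000000) the genome1 share of input was 34.8% in KO and 66.3% in WT. In the bin of Kcnq1 and the growth inhibitor gene Cdkn1c (chr7:143000001-144000000) it was 33.6% in KO and 66.1% in WT. The bin of Peg3, a zinc finger gene, had 34.7% in KO and 67.1% in WT, and that of Zdbf2 on chromosome 1 had 67.5% in KO and 35.9% in WT. The bin of Snrpn, a splicing protein gene, was the exception, with 24.4% in KO and 47.1% in WT.

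Genes of DNA repair and the damage response were carried along in the same way. Of their 20 bins (22 genes of 22 listed) 19 had KO and WT on opposite sides, beside 440 of 490 members. The chromosomes were chosen for these shares, so such a count is no result about the listed genes. Parp1, whose product senses strand breaks, had a genome1 share of 67.4% in KO and 36.1% in WT in its bin. Trp73, a p53 relative, had 33.0% in KO and 66.6% in WT, and Mtor, the growth kinase gene, 33.7% in KO and 67.1% in WT. Fancg, of the Fanconi anaemia complex, was the bin on the same side in both, with 21.9% in KO and 45.4% in WT.

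Of 6 p53 and cell cycle bins (7 genes), 4 had KO and WT on opposite sides, among them that of the inhibitor genes Cdkn2a and Cdkn2b, with 27.3% in KO and 54.8% in WT, and that of the apoptosis gene Bax, with 33.4% in KO and 66.1% in WT. The 9 bins of 10 fibroblast genes all did, such as that of the collagen genes Col3a1 and Col5a2 (67.1% in KO, 36.2% in WT). Of 11 bins of long genes at fragile sites 10 did. Ptprd was the exception, with 6.21% in KO and 12.2% in WT. Each of these counts stands beside 440 of 490 members on opposite sides.

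In the clones, 3 listed bins picked as examples, 1 per chromosome, gave the following shares. In the Igf2 bin, genome1 held 65.9% and 51.7% in the HY clones, 33.2% and 35.4% in KO clones with SIRT7-WT, and 33.7% and 35.7% in KO clones without it. In the Mtor bin it held 66.5% and 68.8% in the HY clones, 52.1% and 58.3% in KO clones with SIRT7-WT, and 52.7% and 58.3% in KO clones. In the Parp1 bin it held 26.3% and 31.9% in the HY clones, 67.0% and 74.6% in KO clones with SIRT7-WT, and 66.5% and 74.7% in KO clones. Other listed bins lay far from their chromosome. That of the p53 target gene Phlda3 on chromosome 1 held 38.4% and 41.8% in KO clones, and that of Ptprd on chromosome 4 held 10.1% and 11.6%. Both were also low in KO and WT input (39.3% in KO and 18.0% in WT for Phlda3).

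Whether the antibodies took the parental genomes in another ratio than input is a measure apart from the one that chose the chromosomes. Over whole chromosomes they did not differ by much. The share in an antibody library minus that in its input ranged from -0.0956 to +0.628 points over the 3 chromosomes and all pairs of KO and WT libraries. For γH2AX of KO cells it was +0.00478 on chromosome 1, +0.0741 on chromosome 4 and +0.155 on chromosome 7. By bin, γH2AX and input of KO cells lay within 2 points in 189 of 193, 152 of 154 and 138 of 143 bins.

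The ratio of genome1 to genome2 in antibody over input was tested per bin in WT cells, with 2 libraries per assay, by edgeR's quasi-likelihood F test with Benjamini-Hochberg adjustment over 2577 bins and a threshold of 0.05. For γH2AX 2 of 490 member bins were higher and 4 lower in genome1. Over all bins 1.4% were higher and 1.09% lower. For H2AX 11 were higher and 7 lower, where 4.46% of all bins were higher and 2.68% lower. As shares of the 490, the members' counts lay below those backgrounds. With scaling factors (TMM) for each genome column, the splits were 1 higher and 4 lower for γH2AX and 6 higher and 15 lower for H2AX. H2AX calls were 6 without H2AX replicate 1, 28 without H2AX replicate 2, 8 without input replicate 1 and 9 without input replicate 2. Over all bins these settings called 91, 231, 120 and 98. γH2AX calls were 3 without γH2AX replicate 1 and 4 without input replicate 2, and 33 and 37 over all bins.

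The strongest departure in γH2AX was at the growth factor receptor gene Fgfr2. In chr7:130000001-131000000, which also holds Tacc2 and the protease gene Htra1, genome1 held 61.1% and 59.3% of γH2AX reads in the WT replicates, against 66.3% and 67.2% of input. H2AX held 67.7% and 66.8%, so it stood with input and not with γH2AX. The genome1-to-genome2 ratio of γH2AX was 0.41 lower than that of input on the log2 scale (SE 0.0285, adjusted p = 7.17e-21 by edgeR). The Xray-named libraries had the same order with smaller gaps. Genome1 held 32.4% of γH2AX and 34.0% of input in KO cells, and 63.8% and 65.8% in WT cells. In those libraries, bin differences on chromosome 7 reached -2.01 points in KO cells (SD 0.958) and -3.24 points in WT cells (SD 0.969). The Fgfr2 bin was thus not the lowest of the chromosome in either genotype there.

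The last bins of chromosomes 7 and 4 came next. In chr7:145000001-145441459, with the lysosomal channel gene Tpcn2 and the sensory receptor gene Mrgprd, genome1 held 61.3% and 61.8% of γH2AX and 67.2% and 67.0% of input, a log2 change of the ratio of -0.35 (SE 0.0540, adjusted p = 1.84e-06 by edgeR). In chr4:156000001-156508116, with the synapse organiser gene Agrn and the interferon-induced gene Isg15, it held 60.5% and 59.8% of γH2AX and 64.0% and 64.0% of input (-0.24, SE 0.0507, adjusted p = 0.000933 by edgeR). In KO cells both bins had 31.3% in γH2AX and 33.1% in input. The other 3 γH2AX calls were smaller or less stable. The bin of the forkhead genes Foxd2 and Foxe3 (chr4:114000001-115000000, next to the Skint run) was higher by 0.22 (adjusted p = 0.000143 by edgeR). Its γH2AX replicates held 51.9% and 47.5% against 46.1% and 45.5% of input, and the call was lost without γH2AX replicate 1 (adjusted p = 0.603) and with DESeq2 (adjusted p = 0.441). The bin of the stem cell factor gene Klf4 and the repair gene Rad23b changed by -0.13 (adjusted p = 0.0334 by edgeR), and was lost without γH2AX replicate 1 (adjusted p = 0.565), input replicate 1 (0.519) or input replicate 2 (0.110). That of the primase gene Prim2 changed by +0.10 (adjusted p = 0.0465 by edgeR), and was lost without any one γH2AX or input library (adjusted p = 0.0784 to 0.644).

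H2AX departed from input in other bins, mostly. In chr1:70000001-71000000 with Spag16, a sperm flagellum gene, genome1 held 32.7% and 33.8% of H2AX against 38.9% and 39.0% of input (-0.35, adjusted p = 6.85e-12 by edgeR). The γH2AX libraries, at 37.3% and 37.8%, were nearer to input. In chr4:50000001-51000000, which holds no protein-coding gene, genome1 held 62.3% and 65.5% of H2AX against 69.0% and 69.8% of input (-0.34, adjusted p = 1.39e-08 by edgeR). In an olfactory receptor cluster, chr7:108000001-109000000, it was higher in H2AX, at 69.7% and 68.4% against 64.3% and 64.4% of input (+0.30, adjusted p = 5.09e-08 by edgeR). The bin of Jph1 and the neuropathy gene Gdap1 on chromosome 1 was also higher (+0.24, adjusted p = 4.18e-06 by edgeR). The bins of Foxd2 (+0.25 in H2AX), Klf4 (-0.13) and Prim2 (+0.10) were the 3 called in both antibodies, and all 3 were lost in H2AX without H2AX replicate 1 (adjusted p = 0.124, 0.224 and 0.174).

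**Figure D4:**
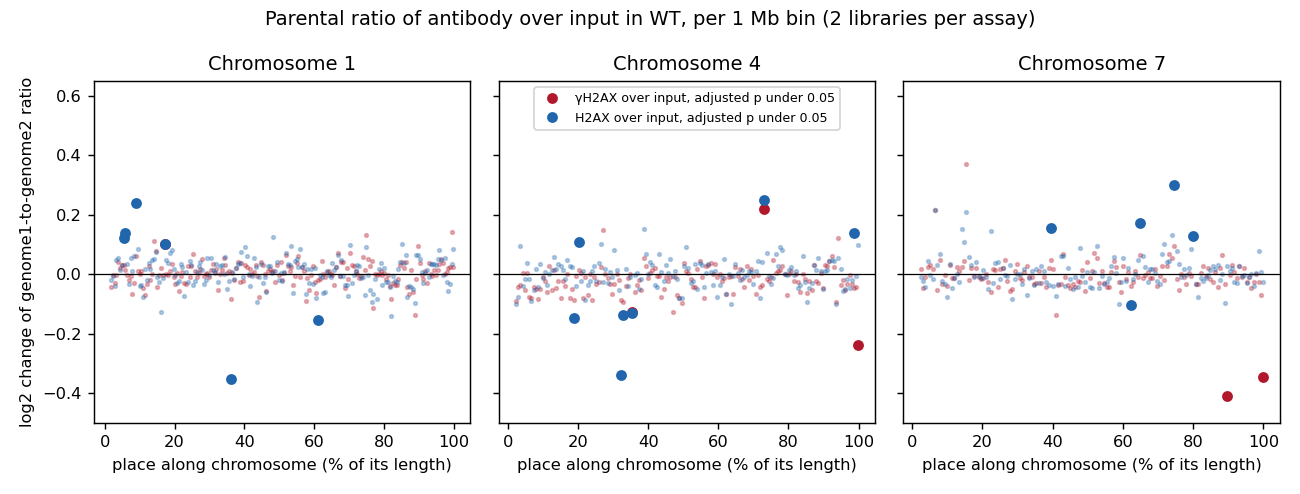
Log2 change of the genome1-to-genome2 read ratio in antibody over input in WT cells, per 1 Mb bin of chromosomes 1, 4 and 7 along percent of chromosome length, with γH2AX in red and H2AX in blue. Large points passed an adjusted p of 0.05 (edgeR, 2 libraries per assay). Most bins lie near 0, and the lowest γH2AX points are the Fgfr2 bin (-0.41) and the last bin of chromosome 7 (-0.35).

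Total γH2AX and H2AX, both genomes and unassigned reads together, were compared with input in WT cells. No member bin passed for γH2AX (0 higher and 0 lower of 490 in edgeR, 1 in DESeq2, and 23 in edgeR at an unadjusted p under 0.05), where 0.0775% of all bins were higher and 0% lower. DESeq2 called 1.31% of the 1531 bins to which it gave an adjusted p, and 6.04% of all bins had an unadjusted p under 0.05. None passed for H2AX in edgeR either (142 in DESeq2, and 117 in edgeR at an unadjusted p under 0.05), with 0% of all bins in either direction. Those member counts lay at the general rate, since DESeq2 called 28.8% of the 2431 bins with an adjusted p (29.0% of members) and 23.5% of all bins had an unadjusted p under 0.05 in edgeR. As wholes, chromosomes 1, 4 and 7 changed in γH2AX by -0.05 (SE 0.0213, adjusted p = 0.207), 0.00 (SE 0.0205, adjusted p = 0.926) and +0.06 (SE 0.0388, adjusted p = 0.225) on the log2 scale in edgeR. In H2AX they changed by -0.04 (adjusted p = 0.265), +0.04 (adjusted p = 0.265) and +0.10 (adjusted p = 0.154) in edgeR. One of the 20 chromosomes (5%) passed in γH2AX and 0% in H2AX. With the WT replicate number as a block, 156 member bins (31.8%) passed for γH2AX and 165 (33.7%) for H2AX, where 37.1% and 35.4% of all bins did.

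On chromosomes 4 and 7 the highest total γH2AX relative to input lay near the end of the chromosome, though no member bin passed in edgeR without the block. The last bin of chromosome 7 held 284 and 231 CPM of γH2AX against 143 and 135 of input in WT cells (log2 ratio 0.89, SE 0.147, adjusted p = 0.264 by edgeR). H2AX held 179 and 151 CPM there. In genome-assigned reads that bin had the highest γH2AX-to-input ratio of all 143 bins of the chromosome in KO cells (log2 0.84) and in the Xray-named WT library (0.88) and WT replicates 1 and 2 (1.01 and 0.75). The last bin of chromosome 4 ranked 3 of 154 in KO cells (0.41) and 4, 3 and 1 in WT (0.42, 0.56 and 0.41). The last bin of chromosome 1, with the complement receptor genes Cr2 and Cd46, was lower in assigned reads, at ranks 124 of 193 in KO cells (-0.17) and 66, 30 and 4 in WT (0.03, 0.22 and 0.19). In total reads it held 181 and 193 CPM of γH2AX against 129 and 132 of input (0.52, SE 0.0974), the highest ratio of chromosome 1. The second highest of chromosome 1 was not near an end: chr1:135000001-136000000 held 450 and 373 CPM of γH2AX against 330 and 318 of input (0.34, SE 0.140, adjusted p = 0.264 by edgeR). The bins of Trp73 (0.50) and Agrn (0.49) were the highest of chromosome 4. The lowest ratio was in chr1:24000001-25000000, a bin of 5 coding genes, among them the cartilage collagen gene Col9a1. It held 271 and 286 CPM of γH2AX against 443 and 511 of input (-0.78, adjusted p = 0.110 by edgeR, and adjusted p = 1.25e-14 by DESeq2). H2AX was near γH2AX there, with 257 and 280 CPM, so both antibodies lay below input. Only 40.3% of reads of that bin were assigned, beside 64.2% in the median member (input, WT replicate 2).

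Total H2AX of the 3 chromosomes was slightly lower in KO cells. Chromosome 1 made up 5.73 and 5.74% of autosomal H2AX reads in KO cells, against 6.05 and 6.09% in WT cells. Chromosome 4 made up 4.57 and 4.60% in KO, against 4.83 and 4.90% in WT, and chromosome 7 made up 4.30 and 4.33% in KO, against 4.55 and 4.66% in WT. The groups did not overlap on any of the 3, but on how many of the other chromosomes they also did not overlap was not counted. The log2 changes were -0.08 (SE 0.00782, adjusted p = 0.000145), -0.09 (SE 0.00964, adjusted p = 0.000294) and -0.09 (SE 0.0128, adjusted p = 0.000671) in edgeR. Such a change is not particular to them, since 85% of the 20 chromosomes passed in that comparison. These drops are small beside the log2 differences of about 1 for single parental genomes in input, which is another measure. Both genomes together differed in input by -0.13, -0.04 and -0.03 on chromosomes 1, 4 and 7, in assigned reads of 1 library per genotype. H2AX of KO cells was not set against input, so whether the drops go beyond DNA content was not tested.

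By bin, 3 members were higher and 172 lower in H2AX of KO cells (edgeR's quasi-likelihood test). That is 0.612% and 35.1% of the 490, where 34.4% of all bins were higher and 32.1% lower. The median member changed by -0.04 and the median of all 2582 bins by -0.01 on the log2 scale. The lower bins were spread over the chromosomes, 59 on chromosome 1, 62 on chromosome 4 and 51 on chromosome 7. The count depended on single libraries. Higher and lower together, it was 70 when the NT-named KO library was left out, 75 without the Xray-named one of KO, and 281 when the NT-named WT library was left out. Over all 2582 bins these settings called 1499, 1529 and 2016. Scaled to the autosomal total it was 370 (2035 over all bins), as the median of all bins then moved to -0.05. In either direction, 221 members (45.1%) passed with DESeq2 and 312 (63.7%) with libraries of the same name as a block, where 71.9% and 78% of all bins did. An unadjusted p under 0.05 in edgeR was found for 207 members, beside 69.4% of all bins.

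**Figure D5:**
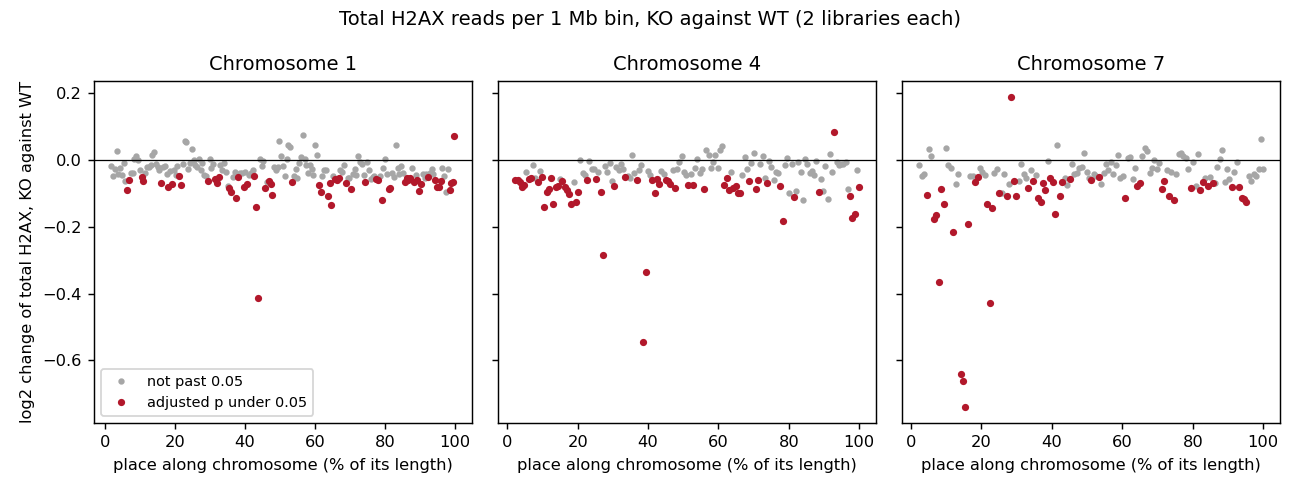
Log2 change of total H2AX reads, KO against WT (2 libraries each), per 1 Mb bin of chromosomes 1, 4 and 7 along percent of chromosome length. Red points passed an adjusted p of 0.05 (edgeR). Most bins lie slightly under 0, and the lowest point is a Vmn1r bin (-0.74) on chromosome 7, a Mup bin (-0.54) on chromosome 4 and the Sp100 bin (-0.41) on chromosome 1.

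The largest fall of each chromosome was in a bin with few assigned reads. In the Vmn1r bin chr7:22000001-23000000, H2AX held 179 and 181 CPM in KO cells, against 296 and 306 in WT cells (-0.74, SE 0.0229). In chr7:21000001-22000000, also of Vmn1r genes, it held 140 and 143 CPM in KO cells and 220 and 226 in WT cells (-0.66, SE 0.0247). In KO cells the Mup bin chr4:60000001-61000000 had 142 and 145 CPM, and in WT cells it had 207 and 212 (-0.54, SE 0.0244). In chr1:85000001-86000000, which holds the nuclear body genes Sp100 and Sp110, KO cells had 1104 and 1136 CPM and WT cells 1451 and 1528 (-0.41, SE 0.0299). Between these in size lay chr7:20000001-21000000 (-0.64) and the secretoglobin bin chr7:32000001-33000000 (-0.43). The second falls of chromosomes 4 and 1 were chr4:61000001-62000000 (-0.33) and chr1:84000001-85000000 (-0.14). The 4 bins given with CPM were picked as the largest falls among bins that passed (highest adjusted p = 5.18e-05 by edgeR). That KO and WT did not overlap in them is therefore no further support. The share of reads assigned was 1.90%, 2.07%, 6.71% and 7.80% in them, beside 64.2% in the median member, and its part in the falls was not tested.

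The 3 bins that were higher in KO were modest. The bin chr7:41000001-42000000 had 373 and 375 CPM in KO cells, and 328 and 327 in WT cells (+0.19). That of the TNF receptor gene Tnfrsf1b (chr4:145000001-146000000) was at 484 and 485 CPM in KO cells, with 456 and 458 in WT cells (+0.08). The last bin of chromosome 1 was at 121 and 122 CPM in KO cells, with 117 and 114 in WT cells (+0.07). The Tnfrsf1b call was lost without either KO library (adjusted p = 0.0604 and 0.0746). That of the last bin was lost without either KO library (0.240 and 0.296) or the Xray-named WT library (0.0947), and under scaling to the autosomal total (0.167).

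No listed group rose in H2AX. Lower bins numbered 4 of 7 for imprinted genes (median log2 change -0.05), 6 of 20 for DNA repair (-0.05), 1 of 6 for p53 and cell cycle genes (-0.05), 2 of 9 for fibroblast genes (-0.04) and 7 of 11 for long fragile-site genes (-0.06). Among the gene families they numbered 11 of 15 for Vmn1r (-0.10), 2 of 4 for Mup (-0.18), 9 of 20 for olfactory receptors (-0.06), 3 of 5 for secretoglobins (Scgb, -0.13), 1 of 2 for kallikreins (Klk, -0.09) and 1 of 4 for interferons (Ifn, -0.03), and the 1 bin of Sp100 was lower. The background was 32.1% of all bins lower, and of the 490 members 35.1%. The bin of the imprinted ubiquitin ligase gene Ube3a was lower by 0.16 (adjusted p = 0.00109 by edgeR), and so was that of Trp73 (-0.16, adjusted p = 0.0457 by edgeR). That of the DNA ligase gene Lig1 was lower by 0.13 (adjusted p = 0.00185 by edgeR). The bins of Igf2 (-0.05, adjusted p = 0.191), Cdkn2a (+0.02, adjusted p = 0.565) and Col3a1 (+0.05, adjusted p = 0.0601) did not pass in edgeR. Igf2 and Col3a1 each passed when the NT-named WT library was left out (-0.08, adjusted p = 3.69e-05, and +0.08, adjusted p = 0.000515). The Trp73 call was lost with DESeq2's size factors (adjusted p = 0.0593) and with DESeq2 itself (0.153).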

How the data were processed

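The values are unscaled read counts in bins of 1 Mb, as deposited by the authors in 2 tables, with total, genome1 and genome2 counts per library (build mm10, per the submitters' processing notes). Those notes name Trimmomatic 0.36, Bowtie2 2.2.9, SAMtools 0.1.19, deepTools 2.4.2, MACS2 2.2.7.1 and FastQC 0.11.3. How reads were counted or assigned to genomes is not given in the sources used here.

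Columns were matched to samples by name, and 42 of 144 were used and 102 not. Most KO and clone columns name a group only, so either the totals of its 2 libraries (H2AX of KO and WT) or the genome counts of 1 library were used per group and assay. The columns named S7KO in the clone table were taken as KO clones by their spelling. The labels do not say that replicates were separate cultures, so p-values cover only the spread among these samples, possibly technical. The members, gene lists and tests were chosen with earlier results of these data known.

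Bins were tested with edgeR 4.0.16 (quasi-likelihood F test, two-sided, TMM, R 4.3.3), with the dispersion held at or above 1e-04 and Benjamini-Hochberg adjustment over all bins, and checked on simulated counts. The parental ratio was tested in 1 model with a term per library and genome1 by assay, without TMM. Chromosome sums used the autosomal total as library size, adjusted over 20 chromosomes. CPM are on TMM library sizes. The spread between libraries (biological coefficient of variation) was 1.43% in the parental model, 9.05% in WT totals and 1.76% in H2AX of KO and WT. DESeq2 1.42.0 and other normalizations and filters were alternatives. Bins named were taken from those with, per chromosome, the 2 highest and lowest shares, largest differences and smallest p-values, from the listed genes, and from bins called in the parental test. Gene names and positions come from RefSeq GRCm38.p6, by gene midpoint. Some bins that the rule names are not reported here.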

Additional observations from a re-analysis of the deposited data

Results flagged for a closer look

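The HY clones differed in direction from the KO clones, with or without SIRT7-WT, on chromosome 1. Both HY clones had a genome1 share below WT, and both KO clones and both KO clones with SIRT7-WT had one above it. The mean of the 2 HY differences from WT minus that of the KO clones was -38.2 percentage points, and against the KO clones with SIRT7-WT it was -38.1 points. Each mean joins 1 γH2AX library (replicate 1) and 1 H2AX library (replicate 2), so clone and assay cannot be told apart. Which named clone is replicate 1 or 2 is not stated. These differences were not tested, since the chromosome was chosen for its parental share.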

How the results depend on the processing

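Leaving out 1 library gave 3 to 6 member bins for γH2AX and 6 to 28 for H2AX in the parental ratio test (6 and 18 with all libraries), and 70 to 281 for H2AX of KO against WT (175 with all). In the totals against input of WT cells, DESeq2 called 1 bin for γH2AX and 142 for H2AX, against 0 and 0 with edgeR (20 and 700 over all bins). The replicate block called 156 and 165 there (959 and 914 over all bins), 312 by shared library name in KO against WT (2015 over all), and 5 and 18 in the parental ratios of γH2AX and H2AX (62 and 182 over all). Deviations of same-numbered WT libraries correlated over bins at 0.808 to 0.986, a hint from the data that the numbers pair them. With 2 numbers, and labels that name no shared batch, the pairing is not established. The autosomal total as library size called 370 bins in H2AX of KO against WT (2035 over all). The γH2AX total of chromosome 4, 0.00 with all libraries, was -0.01 without γH2AX replicate 1 and -0.0048 without input replicate 1 (range -0.0122 to 0.0186). The H2AX total of chromosome 7 passed with the replicate block (0.10, adjusted p = 0.0454 by edgeR) and without H2AX replicate 2 (0.15, adjusted p = 0.0197, range 0.0626 to 0.15). The KO minus WT input shares were 30.7, -32.2 and -31.8 points on chromosomes 1, 4 and 7 as medians of bins, and 31.0, -28.4 and -28.4 relative to the other autosomes. Relative to the other autosomes 3 differences from WT changed sign. They were HY replicate 1 on chromosomes 4 (3.06 points, -0.21 without that subtraction) and 7 (3.22, -0.0479 without), and the KO clone with SIRT7-WT in H2AX on chromosome 4 (0.236, -7.53 without). The KO clone in H2AX there was at -0.117 points (-7.82 without). The H2AX change of the Cdkn2a bin, +0.02 in KO against WT, was -0.0198 with the autosomal total and -0.00956 without the Xray-named WT library (range -0.00956 to 0.0410). The cause of these changes was not tested. KO and clone shares rest on 1 library per assay. Bins with few assigned reads are the least certain.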
